A study of Rattus norvegicus with 24 samples.

Results

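The mitochondrial transfer RNA (tRNA) features of the rat were taken as the features of chromosome MT shorter than 100 nt in the deposited count tables. There were 22 of them among 32552 features, of which 27051 had a count in some library. They were 60 to 75 nt long and covered 1500 nt together, with 14 on the plus strand and 8 on the minus strand. The other 13 features of the chromosome were 204 to 1830 nt long, with 12 on the plus strand and 1 on the minus strand. The tables pair no identifier with a gene name. The tRNA features are therefore called t1 to t22 in the order of their starts along the chromosome, with no amino acid assigned, and their coordinates are those of the tables. The sources used here do not give the genome build. Their number, their lengths and their places between longer features are those of a mammalian set of mitochondrial tRNA genes.

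Mitochondrial DNA is transcribed from both strands as long RNAs that carry many genes, and the tRNAs lie between the messenger and ribosomal RNAs like punctuation. Enzymes cut on each side of a tRNA, which frees it and its neighbours. The tRNA ends are then completed and its bases modified before it serves the mitochondrial ribosome, which makes subunits of the respiratory chain. Neurons depend heavily on that chain for energy.

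RNA was measured by sequencing in punches of the ventral tegmental area (VTA), the midbrain source of dopamine axons, and of the nucleus accumbens (NAc), a striatal target of those axons. All rats were Sprague Dawley. Fentanyl, which activates opioid receptors, was given to one set of rats and saline to the other. The title of the study names opioid withdrawal and choice between fentanyl and food, while the sources used here give no dose, schedule or age. Each library came from 1 rat, and 10 of the 14 rats gave a library from each region, taking the same animal code as the same rat. In the NAc, 4 fentanyl and 3 saline females and 4 fentanyl and 3 saline males were sequenced. In the VTA, 3 fentanyl and 2 saline rats of each sex were sequenced.

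Total counts ran from 4.49 M to 6.3 M in VTA libraries and from 3.46 M to 5.01 M in NAc libraries. All features of chromosome MT held 17.6% to 26.9% of the counts in the VTA and 22.1% to 36.7% in the NAc. In NAc females this share was 29.2% to 36.7% with fentanyl and 22.1% to 26.1% with saline. In NAc males the fentanyl values, 26.9% to 28.4%, lay inside the saline range of 24.9% to 31.3%. In the VTA the lowest fentanyl value, 21.34%, lay just above the highest saline value, 21.04%. Whether the fentanyl differences of single tRNA features exceeded this shift of the whole chromosome was not tested. The tRNA features held 0.420% to 1.47% of all counts in the VTA and 0.296% to 2.44% in the NAc. At these depths 3 counts in a library equalled 0.476 to 0.668 CPM (counts scaled to the same total in every library) in the VTA and 0.599 to 0.867 CPM in the NAc. One library, NAc female fentanyl replicate 1, was the highest of the 14 NAc libraries for 13 of the 16 tRNA features tested there, and the results it bears on most in NAc females are also given without it. Reads were longer than these features, several of which touch or overlap a neighbour, and the sources used here do not give how the counting treated strand or shared reads. Reads of a feature and of the transcript opposite to it therefore cannot be told apart.

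A single feature carried most of the tRNA signal. Feature t12 (ENSRNOG00000032882, MT 6865 to 6933, minus strand) held 83.4% to 95.7% of the tRNA counts of each library, with 12366 to 80754 counts. Its level averaged 112933 CPM per kb of feature length over the 24 libraries, with an SD of 67624. The highest of the 13 longer features, at MT 7758 to 7961, averaged 66676 CPM per kb. Reads were longer than t12, so this comparison per kb may also depend on how reads were counted. The remaining 21 tRNA features summed to 722 ± 237 CPM (SD, n = 24), against 7792 CPM for t12 alone.

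Next in level per kb came t20, t9 and t22. Feature t20 (ENSRNOG00000032997, MT 14062 to 14130, minus strand) averaged 2396 CPM per kb and t9 (MT 5081 to 5152, minus strand) averaged 2355 CPM per kb. Feature t22 (MT 15348 to 15415, minus strand) averaged 2005 CPM per kb. All of these lie on the minus strand, and the mean level of t12 was 47.1 times that of t20. The order of t20 and t9 differed between the regions. In the 10 VTA libraries t20 averaged 1939 CPM per kb and lay below t9, with 3614 CPM per kb, in every library. In the 14 NAc libraries t20 averaged 2722 CPM per kb and lay above t9, with 1456 CPM per kb, in every library. The highest plus-strand feature was t6 (MT 3835 to 3903) with 867 CPM per kb, below t22 in all 24 libraries.

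The middle of the order held 12 features, at 694 CPM per kb for t10 down to 17.2 CPM per kb for t7. Of the 21 pairs of neighbours in the whole order, the ranges of mean ± SD were apart only between t12 and t20 and between t22 and t6. Feature t3 also exceeded t5 in every library, by 3.67-fold on average.

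At the other end, 5 features were nearly without counts. Feature t15 (MT 9383 to 9450, plus) had 3 counts in all 24 libraries together, t18 (MT 11606 to 11665, plus) had 4, t19 (MT 11665 to 11735, plus) had 6 and t11 (MT 5256 to 5321, minus) had 10. Feature t17 (MT 11538 to 11605, plus) had 18. No library held more than 4 counts of any of them, so these levels were at or near the limit that a count of 0 allows. In the 10 VTA libraries t15, t18 and t19 had no count at all.

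**Figure D1:**
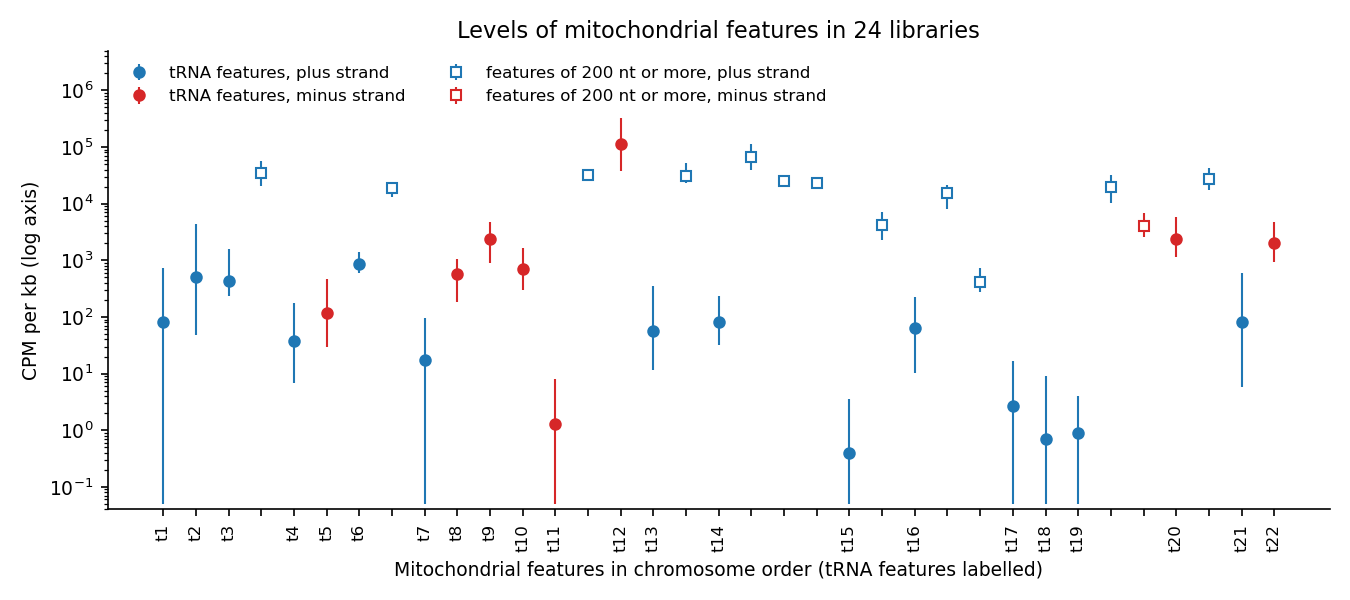
Mean level of each mitochondrial feature in CPM per kb of feature length on a log axis, in chromosome order, with filled circles for tRNA features and open squares for features of 200 nt or more, coloured by strand. Bars run from the lowest to the highest of the 24 libraries, and bars that reach 0 end near the foot of the axis. Feature t12 stands above every square, while t15, t18, t19 and t11 lie lowest.

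Level went with strand, and strand went with neighbours. Of the 8 minus-strand tRNA features, 7 lie directly beside no longer feature of their strand, against 3 of the 14 plus-strand ones. Whether level went with strand or with such contact was not tested. The median of the mean levels was 1349 CPM per kb over the 8 minus-strand tRNA features and 60.6 CPM per kb over the 14 plus-strand ones. For the longer features the order was the other way round, with 3989 CPM per kb for the single minus-strand feature (MT 13543 to 14061) and a median of 24158 CPM per kb over the 12 plus-strand ones. Summed per kb, minus-strand tRNA features exceeded plus-strand ones 103-fold ± 56.3 (SD, n = 24 libraries), with a range of 38.9-fold to 266-fold. Without t12 on the minus side the ratio was 8.43 ± 3.44, and it stayed above 1 in every library, with a range of 2.94 to 15.3.

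Per kb, the tRNA features together reached 0.251 ± 0.103 of the level of the longer features (SD, n = 24). Plus-strand tRNA features reached 0.00702 ± 0.00338 of the level of the 12 plus-strand longer features. Reads were longer than the tRNA features, so counts per kb may not compare features of such unlike length evenly. How far these ratios depend on the counting of shared reads was not tested. The median was 81.1 CPM per kb over the 22 tRNA features and 22993 CPM per kb over the 13 longer ones. The longer feature at MT 10160 to 11537 was an exception among the long ones, with 419 CPM per kb, and the 3 tRNA features that follow it, t17 to t19, were among the 5 lowest.

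The tRNA features fell into 10 runs with no longer feature inside. Before the first longer feature lay t1 to t3, with gaps of 958 nt and 1571 nt between them, in the interval where mammalian mitochondrial DNA carries the ribosomal RNA genes. Features t2 (MT 1026 to 1093) and t3 (MT 2665 to 2739) had 512 and 432 CPM per kb, above t1 (MT 1 to 67) with 80.6 CPM per kb. The largest run, t7 to t11 between MT 4943 and MT 5321, held 1 plus-strand and 4 minus-strand features. Within it the levels spanned 1.28 CPM per kb for t11 and 2355 CPM per kb for t9, so features of a strand and a run did not share a level.

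Features placed alone between longer features did not share a level either. Features t14 (MT 7693 to 7756), t15 and t16 (MT 9800 to 9867) each lie alone between plus-strand longer features. Their means were 81.3, 0.400 and 64.4 CPM per kb. The fourth feature that lies alone, t20, follows the minus-strand longer feature directly on the chromosome and faces a plus-strand one across 5 nt. It reached 2396 CPM per kb, against 3989 CPM per kb in the minus-strand neighbour.

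Feature t12 overlaps the plus-strand longer feature at MT 5323 to 6867 by 3 nt and is followed after 3 nt by t13. Per kb it stood above that neighbour in all 24 libraries, by 1.34-fold to 9.32-fold. It also stood above the next plus-strand longer feature, at MT 7006 to 7689, by 1.52-fold to 6.26-fold. Feature t13 (MT 6937 to 7004, plus), which lies between, averaged 56.7 CPM per kb.

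The next comparison asked which tRNA features differed in the NAc between rats given fentanyl and rats given saline. In females t12, t20 and t8 rose with fentanyl, of 16 tRNA features tested, and no tRNA feature fell. Of all 13248 genes tested, 13.5% passed the test, 1066 of them higher and 722 lower. These 3 tRNA features lie on the minus strand. In males no tRNA feature passed the test, as for 0% of all genes. Tests here are edgeR's quasi-likelihood test with Benjamini-Hochberg adjustment over all genes tested in a region, and a feature is called where its adjusted p is under 0.05. In bulk punches, fewer cells of a type and less RNA per cell cannot be told apart.

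Feature t12 had 22824, 15287, 11756 and 8828 CPM in the 4 fentanyl females, against 2590, 3993 and 3602 CPM in the 3 saline females. Every fentanyl library lay above every saline library, with replicate 1 the highest. The log2 fold change was 2.36 ± 0.41 (SE) with an adjusted p of 0.00464 by edgeR. Without replicate 1 it was 1.96, with an adjusted p of 0.0047 by edgeR.

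Feature t20 had 408, 241, 236 and 213 CPM in the fentanyl females, against 84.4, 119 and 114 CPM in the saline females. The groups did not overlap. Its log2 fold change was 1.61 ± 0.32 (SE) with an adjusted p of 0.00848 by edgeR, and 1.27 with an adjusted p of 0.00225 without replicate 1.

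Feature t8 (MT 5010 to 5078, minus) had 48.3, 40.3, 31.5 and 33.4 CPM in the fentanyl females, against 12.8, 24.4 and 19.6 CPM in the saline females. Again the groups did not overlap. Its log2 fold change was 1.24 ± 0.32 (SE) with an adjusted p of 0.0216 by edgeR. That call was lost without fentanyl replicate 2 (adjusted p = 0.0525), without saline replicate 1 (0.0800) and without saline replicate 4 (0.0682).

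Of the 22 tRNA features, 16 passed the filter on low counts in the NAc, and 3 of these were called in females, against 13.5% of the 13248 genes tested. Among the 7 minus-strand features tested, 3 were called and 6 had an unadjusted p under 0.05, against 28.9% of all genes. Among the 9 plus-strand features tested, none was called by edgeR or by DESeq2, and none had an unadjusted p under 0.05. Of the longer features, 7 of 13 were higher and none was lower. The median log2 fold change was 1.28 over the 16 tRNA features, 0.64 over the longer features and -0.00 over all genes tested. Without fentanyl replicate 1 the median over the 16 tRNA features was 0.32, with 11 of them positive. The medians of mitochondrial features describe those that passed the filter and carry no test.

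Plus-strand features had large fold changes with large errors. Feature t2 had 300, 10.2, 12.2 and 44.7 CPM in the fentanyl females, against 22.4, 17.9 and 40.7 CPM in the saline females. Only replicate 1 lay above the saline libraries by much, and 2 fentanyl libraries lay below them all. Its log2 fold change of 2.06 ± 1.21 (SE) had an adjusted p of 0.289 by edgeR, and without replicate 1 it was -0.15 ± 0.83 (SE), in the other direction. The log2 fold changes of the 9 plus-strand features ran from -0.15 for t6 to 2.24 for t1, and that of t1 was 0.19 without replicate 1.

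Libraries did not overlap for 5 of the 16 features in females. Each fentanyl value exceeded every saline value for t8, t12, t20 and t22, against 5.26% of all genes tested. Each lay below every saline value for t10, against 24.2% of all genes, on CPM of all counts of a library, the mitochondrial ones included. Of the 13 longer features, 8 lay above and 1 below in the same way. Feature t22 had 319, 140, 141 and 146 CPM in the fentanyl females, against 64.5, 96.1 and 105 CPM in the saline females. Its log2 fold change was 1.32 ± 0.43 (SE) and its adjusted p 0.0702 by edgeR, against 0.83 and 0.111 without replicate 1. Feature t10 (MT 5185 to 5252, minus) had 20.9, 24.999, 22.7 and 22.9 CPM in the fentanyl females, against 28.9, 37.9 and 37.7 CPM in the saline females. Its log2 fold change was -0.40 ± 0.17 (SE) and its adjusted p 0.116 by edgeR. The minus-strand neighbours t8 and t10, with t9 between them, thus stood on opposite sides of 0 in the same libraries.

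**Figure D2:**
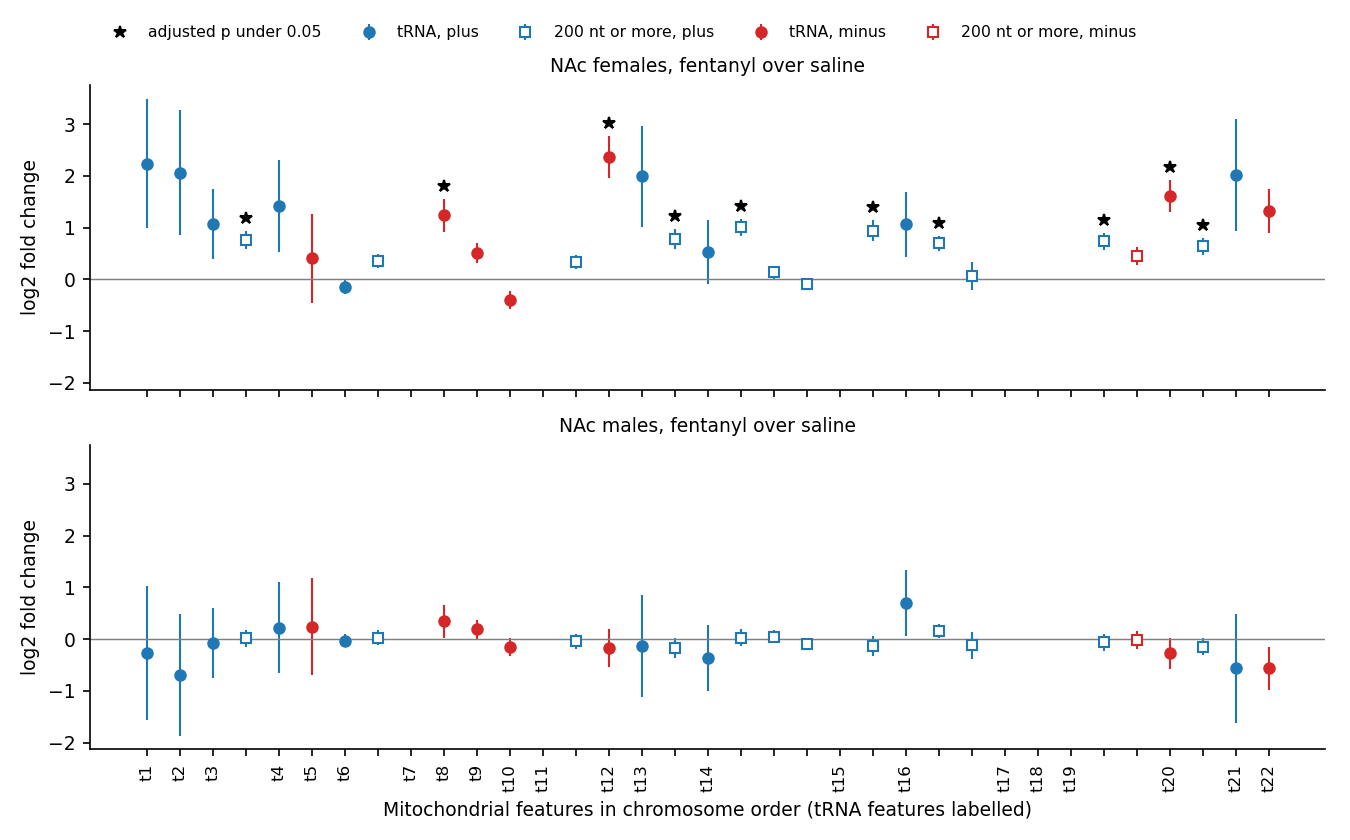
Log2 fold change of fentanyl over saline for each tested mitochondrial feature in NAc females (upper panel) and NAc males (lower panel), in chromosome order, with bars of 1 SE. Stars mark an adjusted p under 0.05: t8, t12 and t20 and 7 longer features in females, and none in males.

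Set against the longer features, the tRNA counts were also higher in fentanyl females. There were 50.8 ± 15.9 tRNA counts per 1000 counts of longer features in fentanyl females and 16.0 ± 2.13 in saline females (SD, n = 4 and 3). The fentanyl value was 44.1 ± 10.3 without replicate 1 (SD, n = 3). Without t12 the values were 2.91 ± 1.09 in fentanyl females and 2.03 ± 0.277 in saline females, with replicate 1 at 4.55. Without both t12 and replicate 1 the fentanyl value was 2.37 ± 0.100 (SD, n = 3). Per kb, t12 stood 6.20 ± 2.38-fold above its neighbour at MT 5323 to 6867 in fentanyl females and 1.56 ± 0.199-fold above it in saline females.

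In NAc males, t12 had 8205, 8660, 7426 and 7130 CPM in the 4 fentanyl rats, against 5702, 11615 and 8554 CPM in the 3 saline rats. The fentanyl values lay inside the range of the saline values. Feature t20 had 158, 150, 161 and 174 CPM in fentanyl males, against 166, 251 and 153 CPM in saline males, with overlap. For t8 the values were 47.8, 36.1, 24.8 and 28.5 CPM in fentanyl males, against 26.9, 34.3 and 19.2 CPM in saline males, again with overlap. None of the 16 features was called by edgeR or DESeq2 and none had an unadjusted p under 0.05. Of all genes tested, 0% were called in males and 850 of 13248 had an unadjusted p under 0.05. No tRNA feature had its fentanyl libraries all above its saline libraries, against 4.18% of all genes. The median log2 fold change over the 16 was -0.14, with 5 of them positive.

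The difference between the sexes was tested as the female effect minus the male effect. No tRNA feature was called by edgeR, against 0.77% of all genes tested, while 3 had an unadjusted p under 0.05, against 14.1% of all genes. By DESeq2 3 were called, namely t12, t20 and t22. For t12 the difference was 2.53 ± 0.54 on the log2 scale (SE) with an adjusted p of 0.057 by edgeR. For t20 it was 1.89 ± 0.43 (SE) with an adjusted p of 0.0752 by edgeR. Both were called without female fentanyl replicate 1 and without female fentanyl replicate 8, and t12 without male saline replicate 1. As a mean over the sexes, t8 and t12 were called, against 7.51% of all genes, with log2 fold changes of 0.79 ± 0.22 and 1.09 ± 0.27 (SE) and adjusted p of 0.0477 and 0.0369 by edgeR. Leaving out 1 library ended the call of t8 in 9 of 14 cases and of t12 in 9 of 14 cases.

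**Figure D3:**
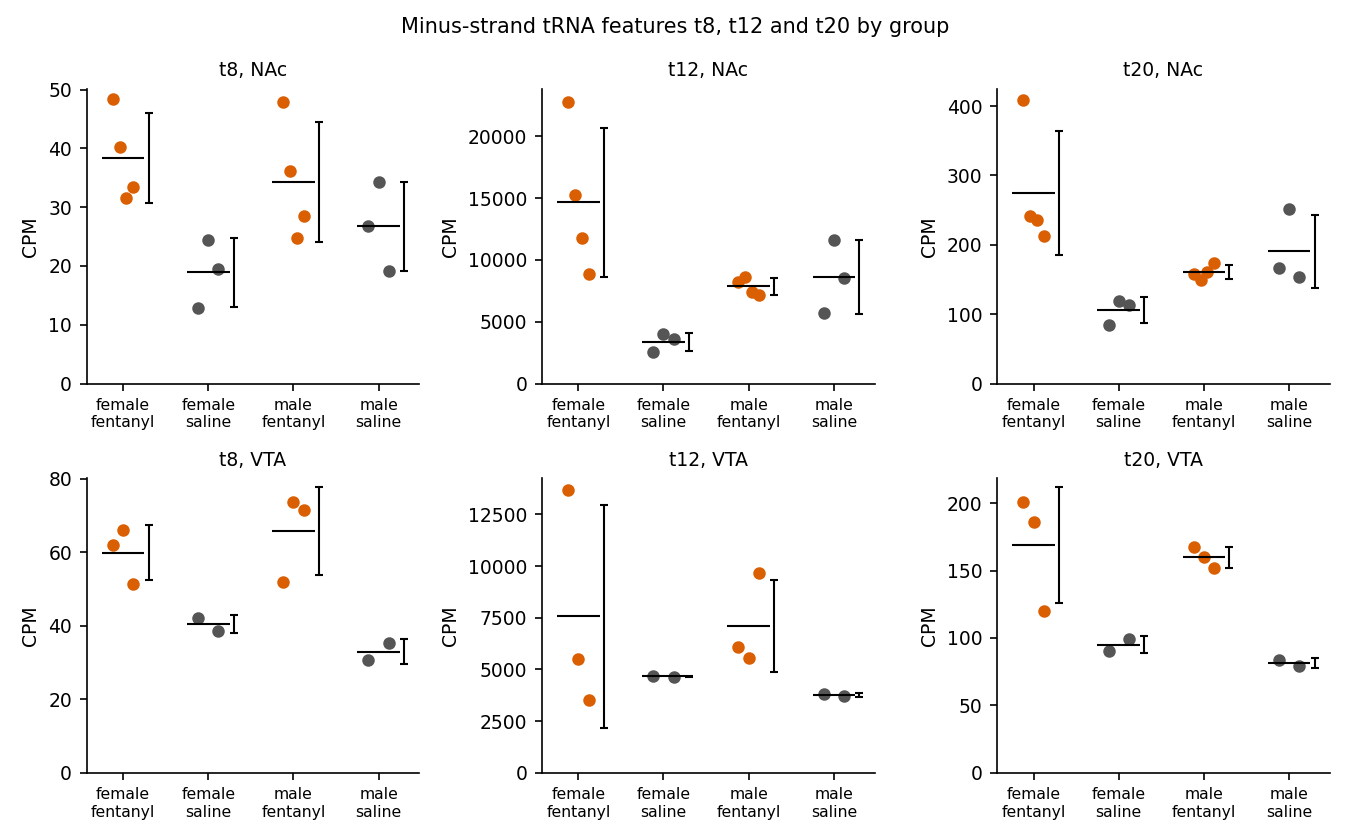
CPM of t8, t12 and t20 in each library of the NAc (upper row) and VTA (lower row), by sex and treatment, with a line at the group mean and a bar of 1 SD. In NAc females the fentanyl and saline points of all 3 features are apart, in NAc males they overlap, and in the VTA t8 and t20 are apart in both sexes.

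In the VTA the same comparison gave no called tRNA feature in either sex. Feature t20 had 201, 186 and 120 CPM in the fentanyl females, against 90.4 and 99.3 CPM in the saline females. In males it had 167, 160 and 152 CPM with fentanyl, against 83.9 and 78.9 CPM with saline. The groups did not overlap in either sex. As a mean over the sexes its log2 fold change was 1.01 ± 0.15 (SE), with an adjusted p of 0.171 by edgeR. None of the 14400 genes tested had a lower adjusted p, although others may share this value.

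For t8 the VTA values were 62.1, 66.0 and 51.5 CPM in fentanyl females, against 42.2 and 38.7 CPM in saline females. In males they were 52.0, 73.8 and 71.5 CPM with fentanyl, against 30.6 and 35.3 CPM with saline. The groups were again apart in each sex. Over the sexes the log2 fold change of t8 was 0.88 ± 0.14 (SE) and the adjusted p 0.235 by edgeR. That of t9 was 0.59 ± 0.12 (SE), also with an adjusted p of 0.235.

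For t12 the VTA values were 13676, 5524 and 3501 CPM in fentanyl females, against 4692 and 4632 CPM in saline females. The saline values lay inside the range of the fentanyl values. The highest came from the female fentanyl rat 1 that also gave the highest NAc value. In males t12 had 6070, 5559 and 9667 CPM with fentanyl, against 3833 and 3691 CPM with saline, without overlap. The summed tRNA level of fentanyl females stood 0.67 above that of saline females on the log2 scale, and 0.00 above it without that rat. In males the sum stood 0.87 above saline.

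Of the 22 features, 13 passed the filter in the VTA, and edgeR called 0 of them in females, in males and as a mean over the sexes, as it did for 0% of all genes. Unadjusted p were under 0.05 for 3 features in females, 5 in males and 6 over the sexes, against 1098, 648 and 1271 of 14400 genes. Of the 13 longer features, 7 in females, 8 in males and 13 over the sexes had such a p by edgeR. DESeq2 called t20 in females, t8 and t20 in males, and t8, t9 and t20 over the sexes. Each fentanyl value exceeded every saline value for 3 of 13 features in females (t8, t9 and t20), against 6.6% of all genes. In males this held for 7 of 13 (t2, t3, t8, t9, t12, t16 and t20), against 6.51% of all genes. It also held for 8 of the 13 longer features in females and 11 of 13 in males. Over the sexes the log2 fold changes were positive for 13 of 13 tRNA features and for 13 of 13 longer ones. Their medians were 0.59 and 0.39, beside 0.00 over all genes. The tRNA fold changes ran from 0.06 to 1.01 on the log2 scale.

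The VTA was set against the NAc inside each of the 10 rats with a library of both, in a fit that blocks on the rat and weights the 4 groups equally. Called tRNA features lay in both directions, as did called genes: t8, t9 and t10 were higher in the VTA, and 10 others were lower. The 3 that rose are neighbours on the minus strand, within MT 5010 to 5252. Of the 17 features that passed the filter 13 were called, against 62.3% of the 14795 genes tested, with 4692 genes higher and 4530 lower. Of these 17, t1, t4, t7 and t21 did not pass it in the VTA alone and entered through their counts in the NAc, so the filter itself favours a lower level of these 4 in the VTA. Among the other 13, 3 were higher in the VTA and 6 were lower. Of the longer features, 11 of 13 were lower in the VTA and none was higher.

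Feature t9 had a lowest value of 198, a median of 257 and a highest value of 348 CPM in the VTA, against 63.9, 108 and 138 CPM in the NAc. It was higher in the VTA in 10 of 10 rats, and the ranges did not overlap. The log2 fold change was 1.09 ± 0.10 (SE) with an adjusted p of 6.05e-07 by edgeR. Feature t10 had 48.4, 68.6 and 113 CPM as lowest, median and highest in the VTA, against 20.5, 27.1 and 39.3 CPM in the NAc. It too was higher in the VTA in 10 of 10 rats without overlap, by 1.15 ± 0.14 on the log2 scale (SE) with an adjusted p of 1.92e-05 by edgeR.

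Feature t8 had 30.6, 51.7 and 73.8 CPM as lowest, median and highest in the VTA, against 12.8, 32.9 and 48.3 CPM in the NAc. All 10 rats had the higher value in the VTA, although the ranges overlapped. The log2 fold change was 0.53 ± 0.17 (SE) with an adjusted p of 0.0186 by edgeR. Leaving out female fentanyl rat 2, female saline rat 1 or male saline rat 1 ended the call, with adjusted p of 0.0513, 0.0761 and 0.0646. The plus-strand feature t7 (MT 4943 to 5008), 1 nt before t8, was lower in the VTA. It passed the filter neither in the VTA alone nor in the NAc alone. It entered through its counts in the NAc libraries of the paired rats, which favours that direction. It had at most 22 counts in a library, with a VTA range of 0 to 1.04 CPM, against 0.419 to 6.22 CPM in the NAc. Its log2 fold change was -1.91 ± 0.55 (SE) with an adjusted p of 0.00618 by edgeR, and 0.0839 without female saline rat 2. Of the alternative settings, 12 gave a result for t7, against 14 for t8.

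Of the plus-strand features, t21, t1 and t2 had the log2 fold changes farthest below 0. Features t21 and t1 did not pass the filter in the VTA alone and entered through their counts in the NAc. The filter therefore favours a lower VTA level for them, while t2 passed it in the VTA alone. Feature t21 (MT 15280 to 15346) had 0.387, 0.902 and 2.06 CPM as lowest, median and highest in the VTA, against 1.79, 4.30 and 39.9 CPM in the NAc. It was lower in the VTA in 10 of 10 rats, by 2.87 on the log2 scale (SE 0.40, adjusted p 3.67e-05 by edgeR). Feature t2 had 3.27, 6.64 and 16.0 CPM in the VTA, against 10.2, 24.1 and 300.2 CPM in the NAc. It was also lower in 10 of 10 rats, with a log2 fold change of -2.65 ± 0.48 (SE) and an adjusted p of 0.00291 by edgeR. Feature t1 had 0, 1.31 and 3.19 CPM in the VTA, against 0.424, 3.72 and 49.5 CPM in the NAc. In 8 of 10 rats it was lower, with a log2 fold change of -2.78 ± 0.60 (SE) and an adjusted p of 0.00254 by edgeR. Without female fentanyl rat 1, which gave the highest NAc value of each, the log2 fold changes were -2.49 for t21, -2.19 for t2 and -2.18 for t1, and all were still called.

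Feature t16 had 0.689, 2.28 and 4.67 CPM as lowest, median and highest in the VTA, against 1.73, 6.53 and 15.3 CPM in the NAc. All 10 rats were lower, with a log2 fold change of -1.56 ± 0.23 (SE) and an adjusted p of 1.37e-05 by edgeR. Feature t4 (MT 3695 to 3763, plus) had 0.689, 1.02 and 1.34 CPM in the VTA, against 1.05, 2.41 and 12.2 CPM in the NAc. Again all 10 rats were lower, with a log2 fold change of -1.75 ± 0.33 (SE) and an adjusted p of 0.000217 by edgeR. For t13 the values were 0.774, 1.73 and 3.06 CPM in the VTA, against 0.896, 3.26 and 24.3 CPM in the NAc. Here 8 of 10 rats were lower, with a log2 fold change of -1.26 ± 0.40 (SE) and an adjusted p of 0.0135 by edgeR. That call was lost without female saline rat 2 (adjusted p = 0.0545) and without male saline rat 3 (0.111). Of the 10 plus-strand features tested, 7 were lower and none was higher. Among these 7, the 4 features t1, t4, t7 and t21 did not pass the filter in the VTA alone. The filter favours a lower VTA level for them, so the tally by strand rests in part on it. The others called lower were t2, t13 and t16. Features t3, t6 and t14 were not called, with adjusted p of 0.132, 0.464 and 0.0796 by edgeR.

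On the minus strand 3 features were lower in the VTA. Feature t20 had 78.9, 136 and 201 CPM as lowest, median and highest in the VTA, against 84.4, 164 and 408 CPM in the NAc. It was lower in 7 of 10 rats, with a log2 fold change of -0.70 ± 0.10 (SE) and an adjusted p of 1.88e-05 by edgeR. Feature t12 had 3501, 5108 and 13676 CPM in the VTA, against 2590, 8432 and 22824 CPM in the NAc. It was lower in 7 of 10 rats, with a log2 fold change of -0.69 ± 0.18 (SE) and an adjusted p of 0.00841 by edgeR, and of 0.0517 with no block on the rat. Feature t5 (MT 3761 to 3831) had 2.67, 5.65 and 9.58 CPM in the VTA, against 2.75, 9.23 and 32.8 CPM in the NAc. It was lower in 7 of 10 rats, with a log2 fold change of -0.81 ± 0.25 (SE) and an adjusted p of 0.0142 by edgeR. The call of t5 was lost without male saline rat 3 (adjusted p = 0.0519) and with no block (0.0760). The region ranges overlapped for all 3. Feature t22, the seventh minus-strand feature tested, was not called, with an adjusted p of 0.0537.

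**Figure D4:**
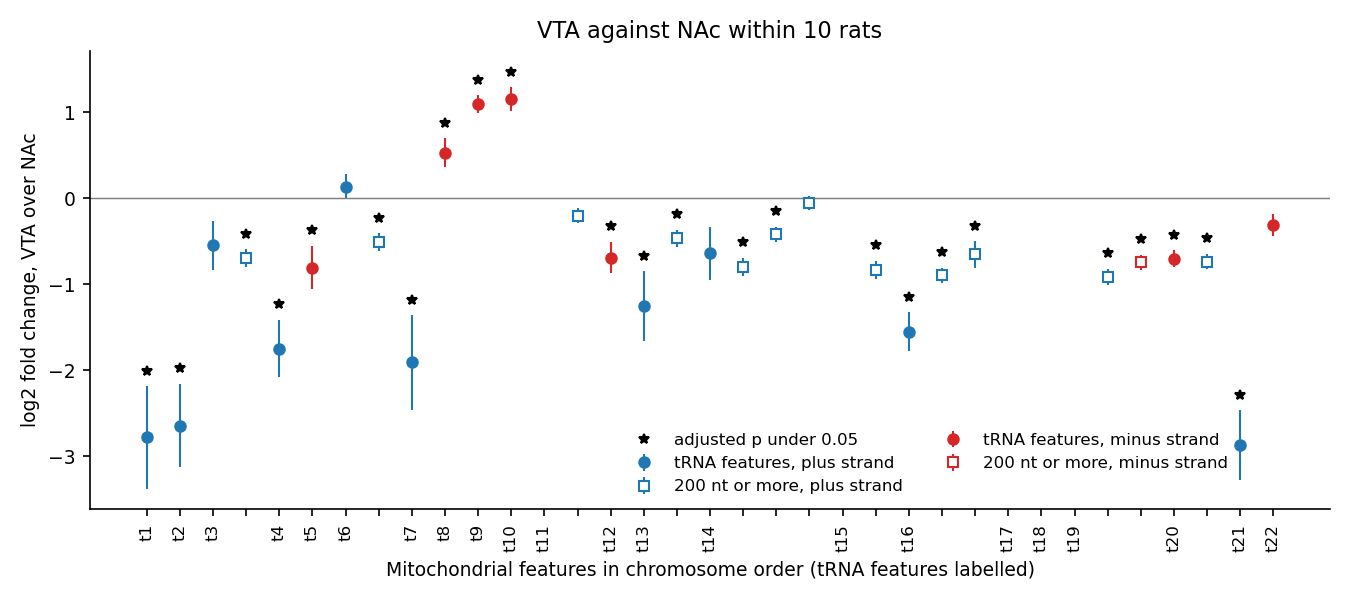
Log2 fold change of VTA over NAc within 10 rats for each tested mitochondrial feature, in chromosome order, with bars of 1 SE and stars at an adjusted p under 0.05. The neighbours t8, t9 and t10 are the called features above 0, while t21, t1 and t2 lie lowest. Features t1, t4, t7 and t21 did not pass the filter on low counts in the VTA alone.

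The median log2 fold change was -0.70 over the 17 tRNA features tested, 4 of which did not pass the filter in the VTA alone. It was also -0.70 over the 13 longer features, and 0.02 over all genes tested. The summed tRNA level was lower in the VTA in 7 of 10 rats, and the mean log2 ratio was -0.51. Without t12 the mean log2 ratio of the sum was 0.17, in the other direction. Without t12, minus-strand tRNA features stood 11.5 ± 2.15-fold above plus-strand ones per kb in the VTA and 6.24 ± 2.32-fold above them in the NAc (SD, n = 10 and 14).

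**Figure D5:**
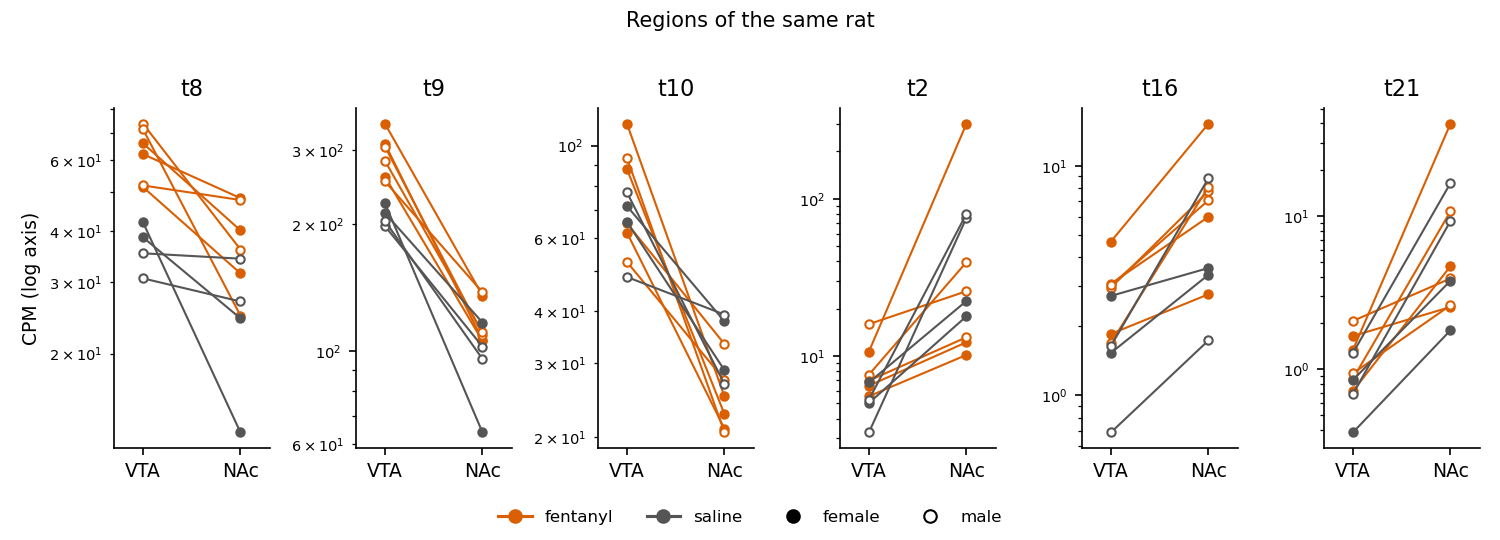
CPM on log axes of t8, t9, t10, t2, t16 and t21 in the VTA (left) and NAc (right) of the same 10 rats, joined by lines and marked by treatment and sex. All 10 lines of t8, t9 and t10 are higher at the VTA end, and all 10 lines of t2, t16 and t21 are lower there. Of these features, t21 did not pass the filter on low counts in the VTA alone.

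Whether fentanyl acted differently in the regions was tested within the same rats as the fentanyl effect in the VTA minus that in the NAc, over the sexes. No tRNA feature was called by edgeR or DESeq2, as for 0% of all genes by edgeR, and 1 of 17 had an unadjusted p under 0.05, against 840 of 14795 genes. That feature was t10, with a difference of 0.66 ± 0.28 on the log2 scale (SE) and an adjusted p of 0.857 by edgeR. For t12 the difference was -0.48 ± 0.36 (SE), for t20 0.33 ± 0.20 (SE) and for t8 0.10 ± 0.34 (SE), with adjusted p of 0.904, 0.887 and 0.985 by edgeR. These errors are wide, and the tests do not show that the regions respond alike.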

How the data were processed

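The authors deposited raw read counts per Ensembl rat feature, 1 table per library for 24 libraries, not normalized. Per the submitters' processing notes, the tools were DESeq2, featureCounts, STAR 2.5.2b, Subread 1.5.2 and Trimmomatic 0.36, whose roles those notes leave out. Per the labels' protocols, RNA was purified on columns, depleted of ribosomal RNA and read as paired ends. How much free tRNA, as against tRNA sequence inside longer transcripts, entered the libraries was not measured. The sources used here do not give the genome build, the strand setting or the treatment of reads that touch several features.

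Levels are CPM, which scales all counts of a library to one common total, and CPM per kb of feature length wherever features are compared. SDs within a group are between rats, SDs over 24 libraries are between libraries of both regions, with 10 rats in both, and SEs come from the fit. Tests used edgeR 4.0.16 in R 4.3.3: TMM scaling, filterByExpr with a minimum count of 10, robust dispersion and the quasi-likelihood test. A single fit per region held its 4 groups, which share an estimate of the spread. Regions were compared within 10 rats with rat as a block. Benjamini-Hochberg adjustment ran over all genes tested, at 0.05. DESeq2 1.42.0, no filter, scaling by genes outside chromosome MT, a replicate block and leaving out each library or rat were the alternatives, and the fit was tested on simulated data. No library was a copy of another of its group.

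The members and lists were chosen with earlier results of these data known. Sums over the tRNA features carry no test. Each called tRNA feature is given with values and tests, the 4 highest, the 4 lowest and those alone between longer features with levels, and t2, t10 and t22 in NAc females were added after their values were seen. Lists of marker genes and of nuclear genes that serve mitochondrial tRNAs were not analysed here, because the tables used pair no rat identifier with a symbol, so the regions were not checked by markers either. No sequence of chromosome MT was used here.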

Additional observations from a re-analysis of the deposited data

Results flagged for a closer look

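In groups of 4 rats, the highest or lowest value of a tRNA feature was examined by its gap to the nearest other value, relative to the whole range of the group (Dixon's test at the 95% level). The 32 such groups of values in the NAc are features of the same libraries, so they are not independent and their number was not tested. Among them 9 stood out. Of these, 7 came from NAc female fentanyl replicate 1, which was the highest of its group each time. It had 300.2 CPM of t2, where the next fentanyl female had 44.7 CPM, and 408 CPM of t20, where the next had 241 CPM. For t22 it had 319 CPM, where the next had 146 CPM. Among the lower plus-strand features it had 12.2 CPM of t4, 24.3 CPM of t13 and 39.9 CPM of t21, where the next values were 3.17, 5.61 and 6.59 CPM. Of the minus-strand t5 it had 32.8 CPM, where the next had 7.57 CPM. The features thus lie on both strands and in different parts of the chromosome. The called features of NAc females were also called without this library.

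The other 2 were smaller in size. NAc female fentanyl replicate 2 had 135 CPM of t9, where the next value was 109 CPM. NAc male fentanyl replicate 1 had 62.5 CPM of t6, where the next was 50.3 CPM.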

How the results depend on the processing

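The direction of every tested tRNA feature was the same under DESeq2's scaling and under scaling by genes outside chromosome MT. In NAc females 3 features were called, 5 by DESeq2, 1 with a replicate block and 2 to 4 when leaving out 1 library. Over the sexes 2 were called, 0 with the block and 0 to 4 when leaving out 1. For the sex difference 0 were called, 3 by DESeq2 and 0 to 2 when leaving out 1. In the VTA 0 were called, but 1 in females, 2 in males and 3 over the sexes by DESeq2, 3, 3 and 6 without a filter, 1 over the sexes with the block, and 0 to 1 when leaving out 1. Between regions 13 were called and 11 to 14 when leaving out 1 rat, 12 with no replicate block and 16 without a filter. For the difference in the fentanyl effect 0 were called, and 2 without a filter. The cause of these changes was not tested.

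Of all genes, the block called 341 in place of 995 over the sexes in the NAc, and leaving out 1 library called 755 to 2018 in place of 1788 in NAc females. No filter called 418, 114 and 499 genes in place of 0 in VTA females, males and their mean, and 388 in place of 102 for the sex difference.

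Same-numbered fentanyl and saline rats had residual correlations of -0.0405 to 0.0160 in the NAc and -0.0121 to 0.206 in the VTA, so the numbers were not taken as pairs. With the block, t8 and t20 had adjusted p of 0.08 and 0.053 in NAc females.

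Summed tRNA levels are log2 ratios. In NAc females it was 2.00, with 1.70 to 2.18 when leaving out 1 library, 0.87 without t12, and 0.46 without both t12 and fentanyl replicate 1, alternatives added after the data were seen. In NAc males it was -0.14, with -0.35 to 0.13 when leaving out 1 library, the positive value without saline replicate 3. In VTA males it was 0.87, and 0.52 relative to the counts of the longer features. Between regions it was -0.51, and 0.17 without t12. The ratio of minus to plus strand was 103, and 22.3 by medians of features and 16.9 without the top feature of each strand. The ratio of tRNA to longer features was 0.251, and 0.00353 by medians and 0.0243 without the top of each class. Depth limits t11, t15 and t17 to t19, which did not pass the filter on low counts in any comparison. It also limits t7, which passed in neither region alone, and t1, t4 and t21, which did not pass in the VTA alone.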
